A study of Mus musculus with 2 samples.

Results

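Bile acids are made from cholesterol in hepatocytes along a classical route, opened by Cyp7a1, and an alternative route, in which the side chain is oxidised first by Cyp27a1 and the ring is hydroxylated afterwards by Cyp7b1. The nuclear receptor FXR, encoded by Nr1h4, senses bile acids and activates Nr0b2, whose product SHP lacks a DNA-binding domain and represses Cyp7a1 and Cyp8b1. A fibroblast growth factor signal from the intestine, received in the liver by Fgfr4 and its co-receptor Klb, lowers Cyp7a1 as well. The genes described here are 8 enzymes (Cyp7a1, Cyp7b1, Cyp39a1, Cyp27a1, Cyp8b1, Akr1d1, Slc27a5 and Baat) with the receptor gene Nr1h4 and the repressor gene Nr0b2. They were chosen by gene symbol, and 16 probe sets carry exactly these symbols. The 10 genes stand among 18193 genes of the array, and all 10 belong to the 9299 genes called measured, those whose log2 values on both arrays averaged 6 or more.

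Livers came from Yap+/- mice, heterozygous for the Hippo pathway co-activator gene Yap1, and from wild type Yap+/+ mice. Both groups were untreated, had the C57BL/6 background and were killed on postnatal day 30. Livers of 5 mice per genotype were pooled and read on 1 Affymetrix array per genotype. There is thus 1 sample per genotype, no replicate, no test and no error for any difference below. The labels do not give sex, hour of killing or feeding state, and the constitution of the mutant allele is not described in the sources used here.

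Yap1 itself read 9.24 in the Yap+/- pool, against 9.40 in the Yap+/+ pool, on its brighter probe set. Its dimmer probe set read 5.77 in Yap+/-, against 6.01 in Yap+/+, so both were slightly lower in the heterozygote. Alb, the hepatocyte product albumin, read 15.09 on both arrays, and 15 of 15 matched hepatocyte markers were measured, as the tissue label states. Differences are given throughout as the Yap+/- value minus the Yap+/+ value on the log2 scale. For scale, this difference had a robust SD of 0.15 over measured genes, and for 3406 genes with a further measured probe set the brightest pair disagreed about it with a robust SD of 0.17. The Yap1 differences, -0.15 on the brighter and -0.24 on the dimmer probe set, were not far from this scale. They do not establish a lower Yap1 level. Control transcripts had a larger excess of signal at the 3-prime end over the 5-prime end in the Yap+/- pool, with 1.57 in Yap+/- against 1.37 in Yap+/+ for beta-actin, 0.49 against 0.27 for Gapdh and 5.51 against 5.31 for pyruvate carboxylase. This sign of RNA or labelling quality runs alongside every difference below, and its part in them was not tested.

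The upstream sequences of Nr0b2 and Cyp8b1 are shown because these members, after Cyp7a1, differed most between the pools and because SHP and the NR5A receptor LRH-1 are known to act on both promoters. They are the 250 bases before the gene start, from a table of RefSeq promoters on GRCm38.p6 in which 5 of the 10 members were matched. The promoters of Cyp7a1, Cyp7b1, Cyp39a1, Baat and Slc27a5 were not analysed here. The Nr0b2 sequence lies at chr4:133553126-133553375 on the plus strand, and the Cyp8b1 sequence at chr9:121916306-121916555 on the minus strand. Capitals mark TCAAGG, the first letters of the extended half-site TCAAGGTCA bound by NR5A receptors.
Nr0b2: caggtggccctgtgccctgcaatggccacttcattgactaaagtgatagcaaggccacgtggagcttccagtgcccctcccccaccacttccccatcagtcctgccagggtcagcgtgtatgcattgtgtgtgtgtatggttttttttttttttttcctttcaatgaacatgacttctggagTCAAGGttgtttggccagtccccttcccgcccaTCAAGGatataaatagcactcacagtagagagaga
Cyp8b1: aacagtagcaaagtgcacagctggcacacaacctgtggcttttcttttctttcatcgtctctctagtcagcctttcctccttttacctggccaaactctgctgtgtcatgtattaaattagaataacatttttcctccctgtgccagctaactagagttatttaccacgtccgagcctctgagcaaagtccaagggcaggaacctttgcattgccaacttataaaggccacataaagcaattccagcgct

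Both strands were searched for 4 motifs. The nuclear receptor half-site AGGTCA was found 2 times upstream of Akr1d1 and 1 time upstream of Nr1h4, and not in the windows of Nr0b2, Cyp8b1 and Cyp27a1, while 14.0% of all 32851 promoter windows hold it. The whole extended half-site TCAAGGTCA was found in none of the 5 windows and in 0.387% of all windows. The FXR element, an inverted repeat of AGGTCA with a single base between, was in none of the 5 windows and in 0.00609% of all. Only 2 of all windows hold this exact form, so its absence here carries no information. Looser forms and bases further upstream were not searched, and no FXR site is shown to be lacking. TCAAGG, a motif added after the sequences were read, was found 2 times upstream of Nr0b2, starting 68 and 35 bases before the gene start. It was also found 1 time upstream of Akr1d1, where it overlaps a half-site, whereas 12.5% of all windows hold it at least once and 0.922% at least 2 times. These matches describe letters only. Because TCAAGG was added after reading these sequences, its share of all windows is no test of it. CCAAGG, which differs only in its first letter, is present in the Cyp8b1 sequence shown but was not among the motifs searched.

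Cyp7a1, the rate-limiting hydroxylase of the classical route, was much lower in the Yap+/- pool. Its brighter probe set (1438743_at) read 8.78 in Yap+/-, against 10.04 in Yap+/+, a difference of -1.26 or 2.39-fold. Its other probe set (1422100_at) read 6.04 in Yap+/-, against 7.64 in Yap+/+, a difference of -1.60 or 3.02-fold. The pair of probe sets thus lay in the same direction, and the dimmer one was the farther apart. Of the 9299 measured genes, 14 had a lower difference than Cyp7a1. Its difference was 9.28 times the robust SD of the 500 measured genes nearest to it in mean value, here called the local robust SD. That SD is a spread across genes, not between pools of 1 genotype, so it is no error for any gene. In pooled tissue, fewer cells of a type and less RNA per cell cannot be told apart.

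Of the 10 members, 1 was at least 2-fold lower, Cyp7a1, a size reached downwards by 0.226% of measured genes. None of the 10 members was at least 2-fold higher, a size reached upwards by 0.0968%. At 1.5-fold, 2 members were lower, Cyp7a1 and Cyp8b1, against a background of 0.645%, and 1 was higher, Nr0b2, against 0.699%. Of the 8 enzymes, 7 read lower in Yap+/- by any amount, as did 49.6% of all measured genes. The median difference was -0.16 over the enzymes and -0.15 over all 10 members, against 0.00 over all measured genes.

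**Figure D1:**
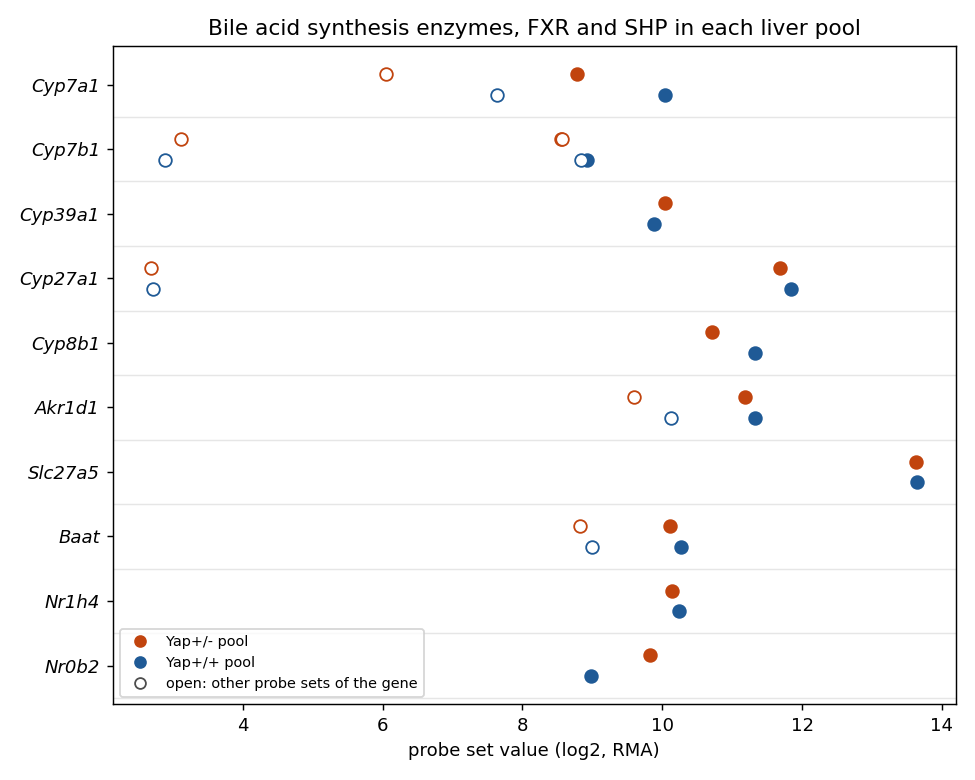
Log2 probe set values of the 10 members (horizontal axis) in the Yap+/- pool (orange, upper of each row) and the Yap+/+ pool (blue, lower), 1 array each. Filled points are the brightest probe set of a gene and open points its others. Cyp7a1 was lower in Yap+/- on both probe sets, Cyp8b1 was lower at 10.71 against 11.32, and Nr0b2 was higher at 9.82 against 8.98.

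Cyp8b1, the hydroxylase that directs synthesis towards cholic acid, was the enzyme with the next largest difference. Its only probe set (1449309_at) read 10.71 in Yap+/-, against 11.32 in Yap+/+, a difference of -0.61 or 1.52-fold. This was 5.21 times the local robust SD, and 51 measured genes had a lower difference. Cyp7a1 differed by a further -0.65 beyond Cyp8b1, so the genes of the first step and of the 12alpha step, both known targets of SHP, were not lower to the same extent.

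Cyp7b1, Cyp27a1 and Cyp39a1 differed less than Cyp7a1 and Cyp8b1. Cyp7b1, which hydroxylates oxysterols, read 8.55 in Yap+/-, against 8.93 in Yap+/+, a difference of -0.38 or 1.30-fold on probe set 1421074_at. This was 2.53 times the local robust SD in size, and 202 measured genes had a lower difference. A further probe set (1421075_s_at) read 8.56 in Yap+/-, against 8.83 in Yap+/+, and lay in the same direction. The dimmest (1446995_at) read 3.12 in Yap+/-, against 2.89 in Yap+/+, below the median of all probe sets, which was 4.92 in Yap+/- and 4.93 in Yap+/+. Both bright probe sets of Cyp7b1 were thus lower and only the one at background level was not.

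Cyp27a1, the mitochondrial enzyme that oxidises the side chain, read 11.68 in Yap+/-, against 11.84 in Yap+/+, a difference of -0.16. Its other probe set, at 2.69 in Yap+/- and 2.72 in Yap+/+, was near the lowest value of the table, 2.49, and is not informative. Cyp39a1, which hydroxylates 24-hydroxycholesterol, was the only enzyme that read higher, at 10.04 in Yap+/- against 9.88 in Yap+/+, a difference of 0.16. The differences of Cyp27a1 and Cyp39a1 were both smaller than the disagreement of 0.17 between probe sets and 1.28 and 1.18 times their local robust SDs in size. The difference of Cyp7a1 minus that of Cyp27a1 was -1.10, and minus that of Cyp7b1 it was -0.88.

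Of the enzymes of the later shared steps, Slc27a5 and Baat were close between the pools, and Akr1d1 depended on the probe set. Akr1d1, which reduces the steroid ring, read 11.18 in Yap+/-, against 11.32 in Yap+/+, a difference of -0.15 on its brighter probe set (1455100_at). Its other probe set (1425771_at) read 9.59 in Yap+/-, against 10.13 in Yap+/+, a difference of -0.54. Both were lower, but they disagreed by more than is usual for a gene, so the size of the Akr1d1 difference is uncertain. Slc27a5, the ligase that activates bile acids with coenzyme A, read 13.62 in Yap+/- and 13.65 in Yap+/+, the smallest difference of the 10 members at -0.02. Baat, which joins bile acids to taurine or glycine, read 10.11 in Yap+/-, against 10.27 in Yap+/+, on a probe set that carries a suffix for shared targets (1419002_s_at), a difference of -0.15. The probe set of Baat without that suffix (1419001_at) read 8.82 in Yap+/-, against 8.99 in Yap+/+, a difference of -0.17.

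The repressor and the receptor did not differ alike. Nr0b2, the SHP gene, read 9.82 in Yap+/-, against 8.98 in Yap+/+, a difference of 0.84 or 1.79-fold on its only probe set (1449854_at). Only 17 of the measured genes had a higher difference, and it was 6.16 times the local robust SD. Nr1h4, the FXR gene, read 10.14 in Yap+/-, against 10.24 in Yap+/+, a difference of -0.11 and 0.817 times its local robust SD in size. Nr0b2 thus read higher while its activator's transcript read slightly lower, with 0.94 between their differences. The gap between Cyp7a1 and the Nr0b2 that represses it was -2.10, the sum of a lower enzyme and a higher repressor. No FXR activity or bile acid level was measured.

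**Figure D2:**
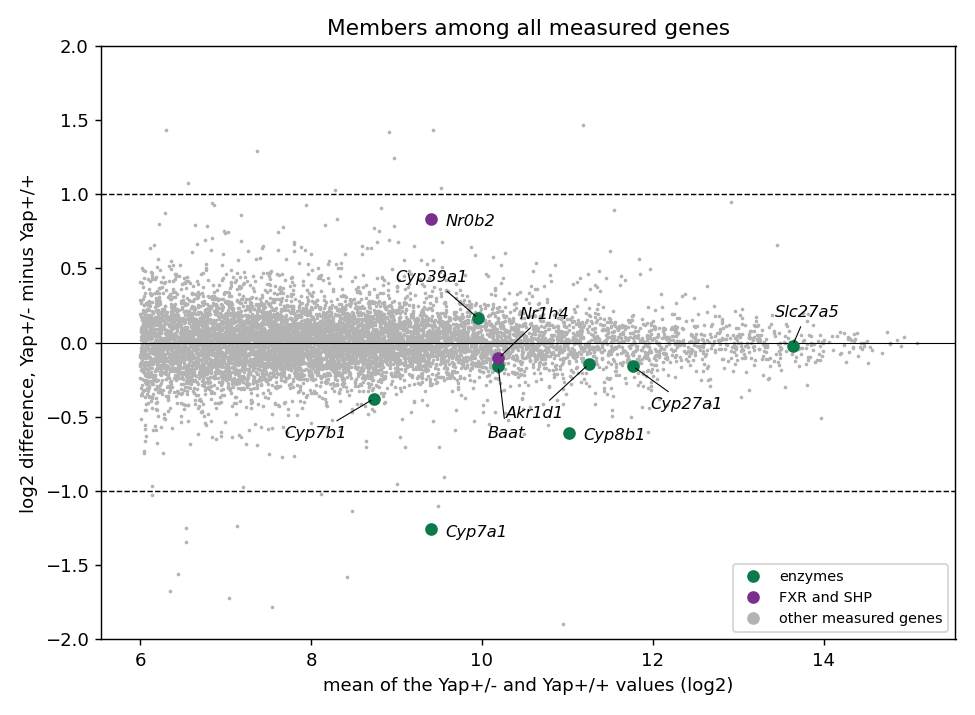
Difference between the Yap+/- and Yap+/+ pools (log2, vertical axis) against the mean of both (log2, horizontal axis) for measured genes (grey), the 8 enzymes (green), and the FXR and SHP genes (purple). Dashed lines mark 2-fold, and 7 measured genes below -2 lie off the axis. Cyp7a1 at -1.26, Cyp8b1 at -0.61 and Nr0b2 at 0.84 lie at the edge of the grey cloud, and the others lie nearer to 0.

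Other genes of bile acid synthesis differed little. Of 14 listed steps, 12 were matched and 11 measured, and none differed by 1.5-fold. Of these 11, 8 read lower, as did 49.6% of all measured genes, and 3 higher, with a median of -0.07. Acox2, the peroxisomal oxidase of the side chain, read 11.34 in Yap+/-, against 11.58 in Yap+/+, a difference of -0.24. Akr1c14, a hydroxysteroid dehydrogenase, and Hsd3b7, the dehydrogenase that follows Cyp7a1, differed by -0.16 and -0.15. On the other side were Acnat2, an acyltransferase, at 0.11, Hsd17b4, the peroxisomal multifunctional enzyme, at 0.08, and Amacr, the racemase of the side chain, at 0.0011. Cyp2c70, which makes muricholic acids in mice, read 13.40 in Yap+/-, against 13.53 in Yap+/+. On the brightest probe sets, the only listed steps further below 0 than Acox2 were thus the members Cyp7a1, Cyp8b1 and Cyp7b1.

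Genes known to regulate Cyp7a1 or Cyp8b1 went both ways. Of 24 listed, 20 were matched and 19 measured. Among the 19, 10 read lower, as did 49.6% of all measured genes, and 9 higher, and none reached 2-fold. Their median was -0.01, and it was positive without the filter, at a minimum mean of 7, without suffixed probe sets, and on the next brightest probe sets. Lower were Nr2f2, the receptor COUP-TFII, at -0.47, Nr1i3, the xenobiotic receptor CAR, at -0.42 and Prox1, a co-repressor of LRH-1 and HNF4A, at -0.35. Higher were Foxo1, a transcription factor restrained by insulin, at 0.65, the co-activator Ppargc1a at 0.50 and the pregnane receptor gene Nr1i2 at 0.45. Nr5a2, the LRH-1 gene, read 9.45 in Yap+/-, against 9.59 in Yap+/+, and Hnf4a read 12.35 in Yap+/-, against 12.15 in Yap+/+. The receptor pair for the intestinal signal read slightly lower, Fgfr4 by -0.14 and Klb by -0.17.

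Among genes known to respond to FXR, Nr0b2 stood alone past 1.5-fold. Of 23 listed and matched genes, Nr0b2 itself included, 21 were measured, 15 read higher and 6 lower, none by 2-fold. The share that read lower was 28.6%, against 49.6% of all measured genes. The median was 0.02, and -0.09 on the next brightest probe sets. The list holds genes that FXR raises and genes that it lowers, so its counts and median do not measure an FXR response. After Nr0b2, the highest were Pltp, the phospholipid transfer protein, at 0.24 and the lipoprotein receptor Scarb1 at 0.22. The lowest were Insig2, a brake on sterol synthesis, at -0.28, Slc10a1, the uptake transporter of conjugated bile acids that FXR lowers through SHP, at -0.15 and Apoe at -0.07. The bile salt export pump Abcb11, a direct FXR target, read 12.75 in Yap+/-, against 12.70 in Yap+/+. The basolateral exporter subunit Slc51b read 6.54 in Yap+/-, against 6.35 in Yap+/+.

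**Figure D3:**
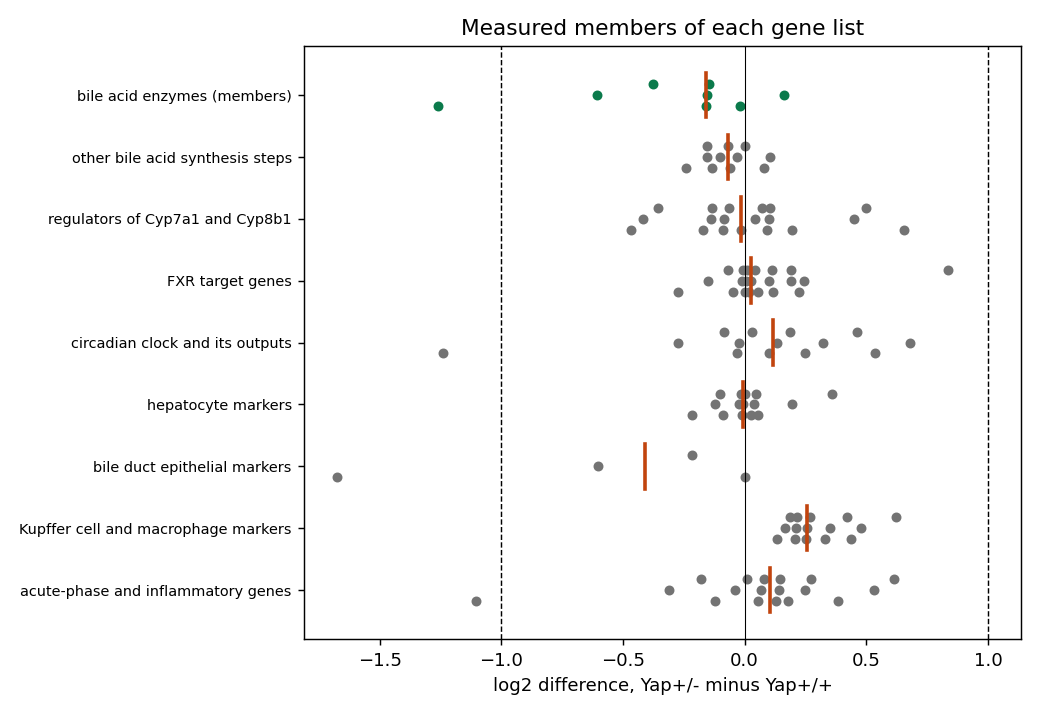
Log2 difference, Yap+/- minus Yap+/+ (horizontal axis), of each measured gene (points) in the 8 member enzymes (green) and in 8 gene lists (grey), with the median of each as an orange bar. Dashed lines mark 2-fold and vertical offsets separate points. The enzymes have a median of -0.16, the hepatocyte markers -0.0077 and the Kupffer cell markers 0.26.

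Hepatocyte markers were close between the pools. Of 18 listed, 15 were matched and measured, 8 read lower, 6 higher and Alb the same, with a median of -0.0077 that was 0 or positive under 4 alternatives, and their summed level was 17.96 on the log2 scale in both pools. The lowest were Tat, tyrosine aminotransferase, at -0.22, Asgr1, a subunit of the asialoglycoprotein receptor, at -0.12 and Fah, of tyrosine breakdown, at -0.10. The highest were Asgr2, the other receptor subunit, at 0.36, and Hnf4a at 0.20. Macrophage markers and some listed duct markers did differ in these pools. All 15 Kupffer cell and macrophage markers read higher in Yap+/-, as did 4542 of all 9299 measured genes. The markers had a median of 0.26, from Timd4 at 0.13 to Marco at 0.62. Their summed level was 13.97 in Yap+/- and 13.67 in Yap+/+. Cd68 and Cd5l differed by 0.48 and 0.44.

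Of 15 listed bile duct markers, 12 were matched and 4 measured. The summed level of the 12 matched markers, those under the minimum included, was 9.71 in Yap+/- and 10.15 in Yap+/+. Of the 4 measured, 3 read lower in Yap+/-, as did 49.6% of all measured genes. The lower ones were Muc1 at -1.67, Onecut1 at -0.60 and Prom1 at -0.22, and Krt23 was at 0.0036. Whether each of these listed genes reports duct cells alone was not tested. Of these measured markers, only Muc1 was at least 2-fold lower, a size reached downwards by 0.226% of all measured genes. Krt19, the defining duct keratin, was under the minimum at 4.83 in Yap+/- and 6.73 in Yap+/+, a difference of -1.90. The other 7 markers under the minimum differed less, between -0.35 for Slc10a2, a bile acid uptake transporter, and 0.26 for Sox9, a transcription factor of duct cells. The part of macrophage and duct cells in the differences of Cyp7a1, Cyp8b1 and Nr0b2 was not tested.

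Clock genes are given because Cyp7a1 and Nr0b2 are known to vary over the day in mouse liver. Of 20 listed, 19 were matched and 14 measured, with a median of 0.12. Among the 14, 9 read higher and 5 lower, and 49.6% of all measured genes read lower. Of the 5, 1 was at least 2-fold lower, a size reached by 0.226% of all measured genes. Usp2, a rhythmic protease, differed by 0.68, Per1 by 0.54 and Dbp by 0.46, which are a repressor and an output factor of the clock. Noct, a rhythmic phosphatase, read 6.51 in Yap+/-, against 7.75 in Yap+/+, a difference of -1.24, Arntl, the activator BMAL1, differed by -0.27 and Hlf by -0.08. Some clock genes, such as Noct, Usp2, Per1 and Dbp, thus differed between the same pools as Cyp7a1 and Nr0b2. Others were close between the pools, such as Clock at -0.02, Per3 at -0.03 and Nfil3 at 0.03. The part of clock genes was not tested.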

How the data were processed

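Total liver RNA from 2 pools was labelled with biotin by in vitro transcription and hybridised, per the labels' protocols. The authors deposited 1 log2 value per probe set and array, and RMA and Partek 6.5 are named in the submitters' processing notes, without settings. Sorted by size, the columns differ by 0.047 or less, which quantile normalisation gives, and a shift shared by most genes would be lost. Scanner files and detection calls were not used here, and the number of arrays limits the precision.

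Of 45101 probe sets, 34945 carry exactly 1 gene symbol in the platform annotation. The brightest probe set by mean over both arrays represented a gene. With 1 pool per genotype, differences are described by size, at 2-fold and 1.5-fold, beside all measured genes. The members and 8 gene lists were chosen with earlier results of these data known. Of 150 listed genes, 13 matched no symbol. Named were all members, up to 3 measured genes per direction of each list with the largest differences, and the 2 genes closest in difference to Cyp7a1 and to Nr0b2. Alb, Cyp2c70, Nr5a2, Hnf4a, Fgfr4, Klb, Abcb11, Slc51b, Krt19, Slc10a2, Sox9, Timd4, Clock, Per3 and Nfil3 were added after their values were seen. Counting was tested on simulated data. The computations ran in Python 3.11.15 with pandas 2.3.3, numpy 2.4.6, matplotlib 3.10.9 and statsmodels 0.14.6.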

Additional observations from a re-analysis of the deposited data

How the results depend on the processing

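All 10 members kept their sign under every alternative that gave them a value: no filter or a minimum mean of 7, the mean of all probe sets, no suffixed probe sets, the next brightest probe set, median centring, a lowess trend removed, quantile normalisation repeated and 64 added on the linear scale. The filters and median centring, by a median of 0, could not change a member's difference. Leaving out suffixed probe sets changed only Baat, and the mean of all probe sets could not change members with 1 probe set. A sign kept under those settings is no support. The difference of Cyp7a1 ranged between -1.60, on its next brightest probe set, and -1.15, with 64 added. That of Nr0b2 ranged between 0.76 and 0.84. On the next brightest probe sets, which 4 measured members have, all of them enzymes, the median was -0.40 over members and over enzymes; fewer genes enter there. At 1.5-fold, 2 members were lower and 1 was higher, and at 3-fold 0 were lower. For the mean of all probe sets, Cyp7b1 was at -0.14 and Akr1d1 at -0.34. Of 173 values of members and lists, 11 moved by more than 0.17, and 9, all medians of the regulator, FXR target and hepatocyte lists, lost their sign. The 173 include the member values that could not change. Medians of the bile duct list ranged between -0.60 and -0.15. No paired analysis was possible because each genotype has 1 array. Values near or below the median of all probe sets are not shown to be above background. The dimmest probe sets of Cyp7b1 and Cyp27a1 lay below that median.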

Other observations

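Acute-phase and inflammatory genes went both ways. Of 21 listed genes, 18 were measured, 13 read higher in Yap+/- and 5 lower, with a median difference of 0.10. The share that read lower was 27.8%, against 49.6% of all measured genes, and the difference of largest size in the list, that of Lcn2, was downwards. Socs3, a brake on cytokine signalling, read 8.10 in Yap+/-, against 7.49 in Yap+/+. Saa3, an acute-phase protein, differed by 0.53 and the transcription factor Cebpb by 0.39. Lcn2, lipocalin, read 8.93 in Yap+/-, against 10.04 in Yap+/+, the only gene of the list at least 2-fold lower, while Saa1 differed by -0.31 and Cebpd by -0.18. The cytokine genes Il1b, Tnf and Il6, named after their values were seen, were under the level taken as measured on the mean of both arrays.

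The measured genes closest to Cyp7a1 in difference, over 2 arrays, were Ly6d, a surface protein of the Ly6 family, at 5.91 in Yap+/- against 7.16 in Yap+/+, and Noct. Those closest to Nr0b2 were H2-Ab1, a chain of the class II antigen-presenting complex, at 8.72 in Yap+/- against 7.88 in Yap+/+, and Gm6958, a predicted gene, at 7.61 in Yap+/- against 6.75 in Yap+/+. Likeness here is the distance between log2 differences, which was at most 0.023 for these 4 genes.

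Xist, which silences an X chromosome in females, was at 12.71 in the Yap+/- pool and at 12.76 in the Yap+/+ pool. The highest of 9 Y-linked probe sets was at 3.56 in the Yap+/- pool and at 3.59 in the Yap+/+ pool. These lay below the median of all probe sets, 4.92 in Yap+/- and 4.93 in Yap+/+, so both pools read as female.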
